A study of Mus musculus with 12 samples.

Results

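Transcription factor genes that pattern the embryonic mesoderm or mark fat depots were followed across 4 mouse adipose depots. They were chosen by name as a set of 10 genes out of the 47729 in each table, and 9 of the 10 passed a filter on low counts that left 18942 genes. The set held Gata2, Gata3, Gata4, Gata5 and Gata6 of the GATA family, the basic helix-loop-helix gene Tcf21, the homeobox genes En1, Shox2 and Meox1, and the nuclear receptor gene Nr2f1. RNA was measured by bulk sequencing in 12 libraries from male, wild type C57BL/6J mice aged 6 to 10 weeks on a high-fat rodent diet. The groups, with 3 libraries each, were interscapular brown fat (BAT), epididymal white fat (EWAT), retroperitoneal white fat (RWAT) and inguinal white fat (IWAT). Surgical denervation was recorded for all 12 libraries, so each comparison is between denervated depots and none measures denervation. The labels do not say whether replicates came from separate animals, and the p-values then measure only the spread between these samples.

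GATA factors are zinc finger proteins that bind DNA at GATA-containing sites. Gata2 and Gata3 are expressed in preadipocytes and are known to hold back their conversion to adipocytes. Gata4, Gata5 and Gata6 act in mesoderm and endoderm, including the lateral plate from which the linings of the body cavity arise, and Gata6 is also needed by resident macrophages of the peritoneal cavity. Tcf21 is known from visceral mesenchyme and from precursors of visceral fat, and Shox2 and En1 from limb and trunk mesenchyme and from subcutaneous fat. Meox1 acts in the somites, and Nr2f1 encodes the orphan receptor COUP-TFI. Fat inside the abdomen, such as EWAT and RWAT, is covered by mesothelium, an epithelial sheet that expresses Wt1, whereas IWAT and BAT lie under the skin and between the shoulder blades.

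The libraries held 12933383 to 21106454 estimated read counts, and 3 counts corresponded to 0.134 to 0.227 CPM, the counts scaled to library size. Several libraries stood apart within their depot. The brown adipocyte gene Ucp1, for the uncoupling protein, was at 1490 CPM in BAT 1 but at 0.253 and 1.70 CPM in BAT 2 and BAT 3, while Zic1, a positional marker of brown fat, was at 7.35 to 16.0 CPM in all 3 BAT libraries and at 0.0446 to 0.910 CPM in the 9 white ones. Skeletal muscle genes summed to 512 CPM in RWAT 1, 2610 CPM in RWAT 3 and 128 CPM in BAT 1, against 3.52 to 26.2 CPM elsewhere. EWAT 1 had the lowest sum of adipocyte genes, 911 CPM against 2650 to 17400 CPM in the other 11 libraries. Of 10 markers of epididymis and testis, Lcn5, Lcn8, Adam7 and Defb20 were at 0 in all 12 libraries, while Star, a steroidogenic gene on the same list, was at 4.67, 3.83 and 6.94 CPM in EWAT and at 2.03, 3.08 and 2.00 CPM in IWAT (edgeR adjusted p = 0.0984). The list summed to 6.28 to 8.30 CPM in EWAT and to 2.94 to 7.05 CPM in the other depots.

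Levels between genes were compared on the deposited TPM scale, which divides by transcript length. The 10 genes were of low abundance. Over the 12 libraries Shox2 averaged 4.57 TPM, Gata6 3.88, Meox1 3.59, Gata2 1.95, Nr2f1 1.88 and En1 1.76 TPM. Gata3 averaged 0.491, Tcf21 0.325, Gata5 0.295 and Gata4 0.0425 TPM. Gata6 was thus the most abundant GATA gene and Gata4 the least. The TPM scale itself differed between libraries, because the signal recognition particle RNA gene Rn7s1 took between 4.20% (IWAT 2) and 23.5% (EWAT 2) of all TPM. The median TPM of the genes tested ran from 4.07 in EWAT 2 to 9.73 in IWAT 2, so libraries were tested in CPM scaled by TMM factors, a normalization that is less moved by a few abundant RNAs. The orders of depots in TPM carry this difference between libraries and are given as descriptions.

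By mean TPM the depots followed the order EWAT, IWAT, RWAT and BAT for Gata6 (6.66 ± 3.25, 3.75 ± 0.471, 2.78 ± 1.61 and 2.31 ± 0.860; SD, n = 3 each). Gata5 followed the order EWAT, RWAT, IWAT and BAT (0.890 ± 0.521, 0.227 ± 0.200, 0.0367 ± 0.0153 and 0.0267 ± 0.0252 TPM), and EWAT and RWAT were the only neighbours whose libraries did not overlap. Shox2 followed IWAT, RWAT, BAT and EWAT (12.5 ± 8.95, 3.41 ± 4.95, 2.24 ± 1.13 and 0.170 ± 0.145 TPM), and BAT and EWAT were the only neighbours without overlap. The place of RWAT above BAT rested on RWAT 1, with 9.13 TPM of Shox2, since RWAT 2 and RWAT 3 had 0.67 and 0.44 TPM, below all BAT libraries (1.23 to 3.46 TPM). Tcf21 stood at 0.777 ± 0.165 TPM in EWAT and 0.523 ± 0.470 TPM in RWAT, which overlapped, and at 0 in BAT and IWAT. In Gata2, Gata3, Gata6, En1, Nr2f1 and Meox1 every pair of neighbouring depots overlapped on this scale.

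**Figure D1:**
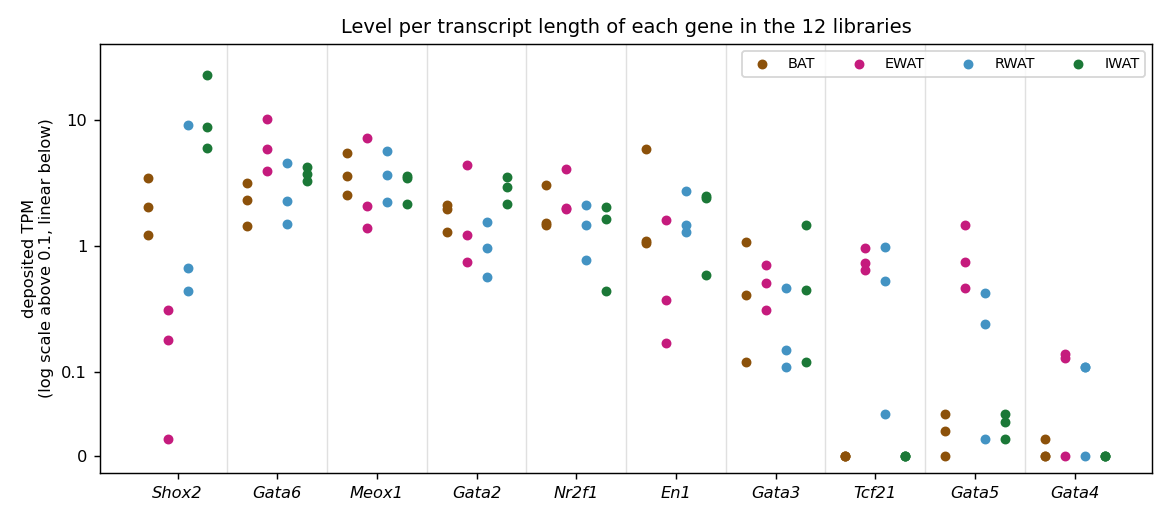
Deposited TPM of the 10 genes in the 12 libraries, with genes ordered by their mean and 1 point per library; the vertical axis is logarithmic above 0.1 TPM and linear below. Shox2 spans 0.02 to 22.7 TPM across libraries, whereas Meox1 lies between 1.40 and 7.23 TPM.

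Among the later GATA genes, Gata5 had the most restricted pattern. Gata5 (Ensembl ENSMUSG00000015627; GRCm38 chromosome 2, 180325133 to 180334699, minus strand) was at 1.52, 2.28 and 4.35 CPM in EWAT 1 to 3. It was at 0.107, 0 and 0.164 CPM in BAT, at 0.0483, 0.909 and 0.834 CPM in RWAT and at 0.196, 0.0892 and 0.0588 CPM in IWAT. Every EWAT library was above all 9 others, and BAT and IWAT stood at or below 3 counts per library. Gata5 was higher in EWAT than in the mean of the other 3 depots by 3.86 ± 0.55 on the log2 scale (SE; edgeR quasi-likelihood adjusted p = 0.006). It was higher in EWAT than in IWAT by 4.54 ± 0.84 (edgeR adjusted p = 0.0126), a call lost when IWAT 2 was left out (log2 fold change 4.37, edgeR adjusted p = 0.0641). In BAT against EWAT the log2 fold change was -4.84 ± 0.86 (edgeR adjusted p = 0.0458). That call was lost in 13 of 21 alternative fits, among them those without BAT 1, BAT 3, EWAT 2, EWAT 3, RWAT 3 or any 1 of the IWAT libraries, with an adjusted p of up to 0.168 in those 8. It was also lost in the replicate block fit (edgeR adjusted p = 0.0957), with the earlier form of the quasi-likelihood test (0.130) and with limma-voom (0.223). EWAT and RWAT were not told apart by the test, with a log2 fold change of 2.21 ± 0.67 (edgeR adjusted p = 0.571), although their libraries did not overlap.

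Gata6 (ENSMUSG00000005836; chromosome 18, 11052064 to 11085635, plus strand) was present in every library and highest in EWAT. It was at 20.5, 18.9 and 16.9 CPM in EWAT, against 5.43, 7.71 and 7.67 CPM in BAT, 3.96, 9.64 and 7.58 CPM in RWAT and 12.5, 7.36 and 9.94 CPM in IWAT. The lowest EWAT library stood above the highest of the 9 others in CPM. Gata6 was higher in EWAT than in the mean of the other depots by 1.26 ± 0.24 on the log2 scale (edgeR adjusted p = 0.0367). This call was lost in the replicate block fit (1.27, edgeR adjusted p = 0.0800). It was also lost without BAT 1, BAT 3, EWAT 1, EWAT 2, EWAT 3, RWAT 3 or IWAT 2, where the log2 fold change ran from 1.19 to 1.33 and the edgeR adjusted p from 0.0526 to 0.126. No single pair of depots passed the test for Gata6. The log2 fold change was -1.44 ± 0.32 in BAT against EWAT (edgeR adjusted p = 0.122), 1.41 ± 0.32 in EWAT against RWAT (0.286) and 0.92 ± 0.31 in EWAT against IWAT (0.0768). On the TPM scale EWAT was at 10.2, 3.90 and 5.85, and the second of these values overlapped RWAT, with up to 4.58 TPM, and IWAT, with up to 4.23 TPM.

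The 8 markers of large peritoneal macrophages, the cells in which Gata6 is best known, summed to 472 to 821 CPM in EWAT, against 416 to 615 CPM in BAT, 342 to 635 CPM in RWAT and 218 to 403 CPM in IWAT. Most of each sum was Adgre1, a marker of macrophages more widely, at 408 to 768 CPM in EWAT and 139 to 329 CPM in IWAT. The sum is therefore mainly a reading of that gene. Alox15 was at 60.7, 8.51 and 4.40 CPM in EWAT 1 to 3. Of the 8, 3 (Adgre1, Alox15 and F10) were higher in EWAT than in IWAT, and Alox15 was also higher in EWAT than in the mean of the others. In these 2 contrasts 11.0% and 1.15% of all genes tested passed in either direction. Timd4, a receptor of resident macrophages on this list, was at 3.62, 1.54 and 0.782 CPM in EWAT and at 16.7, 7.50 and 1.06 CPM in IWAT. The part of these cells in the Gata6 result was not tested. In bulk tissue, fewer cells of a type and less RNA per cell cannot be told apart.

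Gata4 was close to undetected and did not pass the filter. It had 6, 0 and 5 counts in EWAT, 0, 0 and 1 in BAT, 1, 0 and 5 in RWAT and 0 in each IWAT library. The ratio of EWAT to BAT was 10.6, with an exact counting interval of 1.54 to 456 at 95%, and EWAT was at least 3.40-fold higher than IWAT when IWAT was set to a floor of 3 counts over the depot. These intervals and floors cover counting error only.

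**Figure D2:**
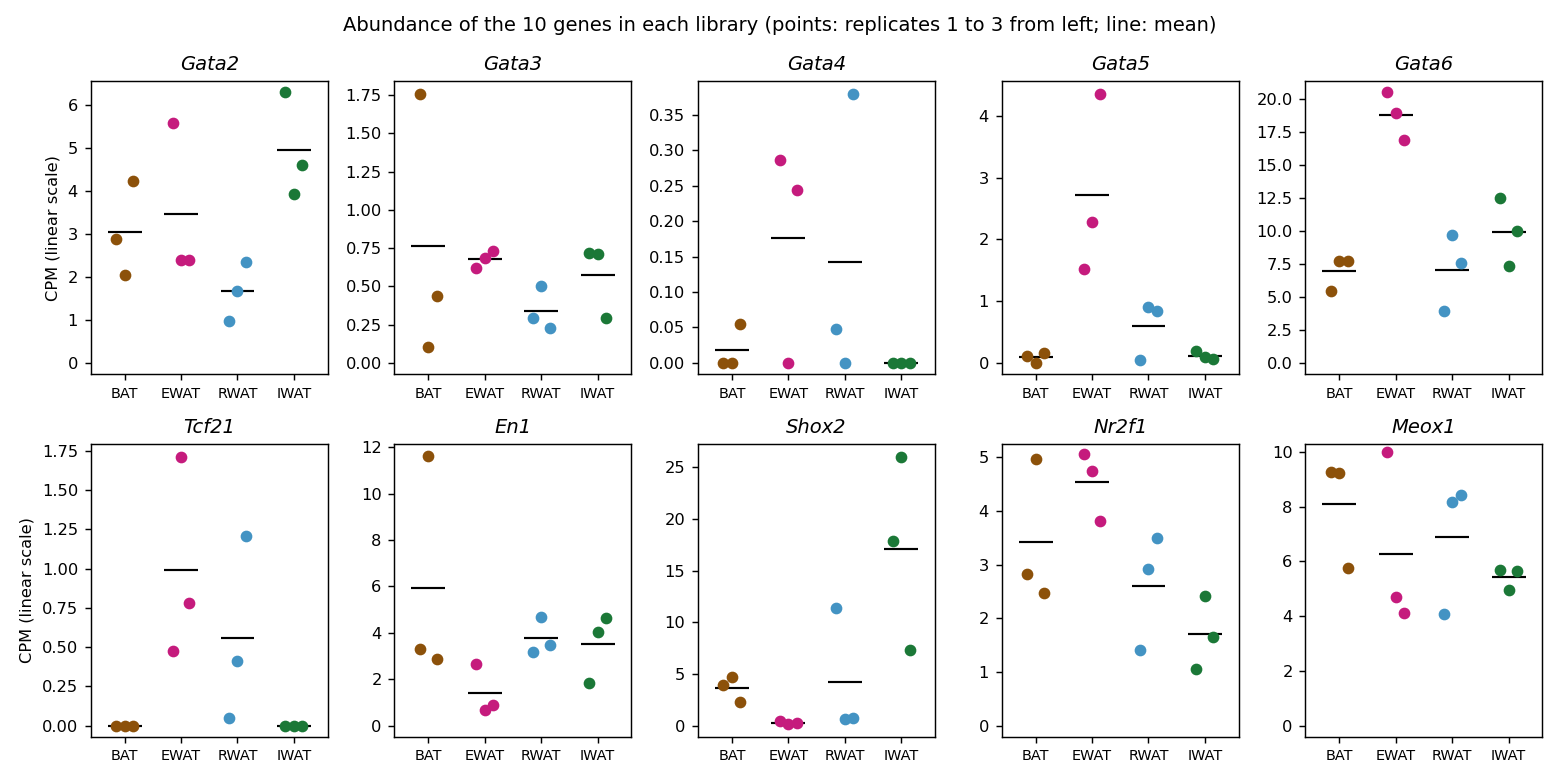
CPM of each gene by depot, on linear axes that differ between panels, with replicates 1 to 3 as points from left to right and the mean as a line. The EWAT points of Gata5 and Gata6 stand above all others, those of Shox2 below all others, and Tcf21 is at 0 in BAT and IWAT.

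Tcf21 (ENSMUSG00000045680; chromosome 10, 22817281 to 22820174, minus strand) was detected only in the 2 intra-abdominal depots. EWAT had 10, 30 and 16 counts and RWAT 1, 9 and 16 counts, while BAT and IWAT had 0 counts in all 6 of their libraries. In CPM the values were 0.476, 1.71 and 0.782 in EWAT and 0.0483, 0.409 and 1.21 in RWAT. With the depot at 0 set to 3 counts over its 3 libraries, Tcf21 was at least 17.3-fold higher in EWAT than in IWAT, and the bound over BAT was slightly larger. The same bounds for RWAT were at least 8.48-fold over IWAT and at least 8.80-fold over BAT. EWAT against IWAT passed the test (edgeR adjusted p = 0.0480), whereas BAT against EWAT (0.210), BAT against RWAT (0.950) and RWAT against IWAT (0.167) did not. EWAT and RWAT differed by 0.94 ± 0.89 on the log2 scale (edgeR adjusted p = 0.997). The EWAT against IWAT call rested on few counts. It was lost with the replicate number as a block (edgeR adjusted p = 0.0561) and without BAT 1, RWAT 2, any EWAT library or any IWAT library, where the adjusted p ran from 0.0518 to 0.116.

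Shox2 (ENSMUSG00000027833; chromosome 3, 66971727 to 66981771, minus strand) was lowest in EWAT and highest in IWAT. It was at 0.428, 0.114 and 0.244 CPM in EWAT, against 3.89, 4.71 and 2.25 CPM in BAT, 11.4, 0.636 and 0.682 CPM in RWAT and 17.9, 26.0 and 7.30 CPM in IWAT. Every EWAT library was below all 9 others, in CPM and in TPM, and BAT stood below IWAT without overlap. Shox2 was lower in EWAT than in IWAT, with a log2 fold change of -5.96 ± 1.16 (edgeR adjusted p = 0.0171). Without EWAT 3 or without IWAT 2 this call was lost (log2 fold changes -5.90 and -5.52, edgeR adjusted p = 0.0690 and 0.0615). The other contrasts did not pass: the log2 fold change was 3.72 ± 1.12 in BAT against EWAT (edgeR adjusted p = 0.239) and -2.24 ± 0.91 in BAT against IWAT (0.357).

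The RWAT value of Shox2 was decided by 1 library. RWAT 1 had 236 counts, RWAT 2 had 14 and RWAT 3 had 9. With all 3, the log2 fold change was -1.99 ± 0.90 in RWAT against IWAT and -3.97 ± 1.12 in EWAT against RWAT. Without RWAT 1 it was -4.69 in RWAT against IWAT (edgeR adjusted p = 0.0957) and -1.27 in EWAT against RWAT (0.978). In BAT against RWAT the direction turned, with a log2 fold change of -0.25 ± 0.89 (edgeR adjusted p = 0.999) with all libraries and of 2.45 without RWAT 1 (0.867). Without RWAT 1, BAT against EWAT passed the test at a log2 fold change of 3.72 (edgeR adjusted p = 0.0387), as did EWAT against the mean of the others at -3.65 (0.0233), against -4.55 ± 1.06 (0.0675) with all libraries. EWAT against the mean of the others also passed without RWAT 2, at -4.72 (0.0374).

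RWAT 1 differed from RWAT 2 and RWAT 3 in the other depot-bound genes as well. Gata5 and Tcf21 had 1 count each in RWAT 1, against 20 and 11 counts of Gata5 and 9 and 16 counts of Tcf21 in RWAT 2 and RWAT 3. Wt1, which marks mesothelium and visceral fat precursors, was at 0 CPM in RWAT 1, against 8.05 and 7.20 CPM in the other RWAT libraries. The 15 mesothelial markers summed to 27.0 CPM in RWAT 1 and to 80.9 and 141 CPM in RWAT 2 and RWAT 3. The same sum was 76.1 to 193 CPM in EWAT, 20.9 to 32.5 CPM in BAT and 33.4 to 46.4 CPM in IWAT. RWAT 1 therefore lay in the range of BAT and below that of IWAT for this list, although it carries the RWAT label. Most of its sum came from Cldn15 (15.8 CPM) and Slc39a8 (7.49 CPM), which were detected in all 12 libraries. The difference between EWAT and RWAT in Gata5 without RWAT 1 was 1.63 on the log2 scale (edgeR adjusted p = 0.978), and that in Gata6 was 1.12 (0.550).

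Part of the mesothelial list was higher in EWAT, where Gata5 was high. Of its 14 tested members, 7 (Wt1, Krt19, Krt18, Bnc1, Upk3b, Krt8 and Upk1b) were higher in EWAT than in IWAT and 5 (Wt1, Krt18, Bnc1, Krt8 and Upk1b) higher in EWAT than in the mean of the others. Of all genes tested, 5.52% and 0.707% passed as higher in EWAT in these 2 contrasts. In them DESeq2 called 9 and 8 genes of the list, and limma-voom only 2 and 2. Without IWAT 2 all genes passing in EWAT against IWAT fell from 2082 to 55. Calls of this list were not counted in the fits that left out libraries. In BAT against EWAT, Krt18 and Krt8 were lower in BAT, as were 0.0528% of all genes, with 9 calls by DESeq2 and 0 by limma-voom. Calb2 was at 0 in 8 libraries and Wt1 in RWAT 1 and IWAT 2. Wt1, Krt18, Krt8, Bnc1, Upk1b and Upk3b passed the filter on low counts through EWAT and RWAT. Their calls therefore describe them without adding support. The list gave 0 calls by edgeR and 0 by limma-voom in the other 5 contrasts. By edgeR 12 of its genes had an unadjusted p below 0.05 in BAT against RWAT and 7 in RWAT against IWAT, where DESeq2 called 3 and 5. BAT against the white depots' mean had 9 such genes, with 4 calls by DESeq2. EWAT against RWAT had 2 and BAT against IWAT 1, with 0 calls by DESeq2. Cldn15, also on the list, was highest in IWAT, at 8.24 to 16.6 CPM in EWAT and at 15.4 to 31.5 CPM in IWAT. Within EWAT the sum was 76.1, 101 and 193 CPM in EWAT 1 to 3, the order of Gata5, whereas EWAT 2 had the most Tcf21. The part of mesothelial RNA in the Gata5, Gata6 and Tcf21 values was not tested.

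**Figure D3:**
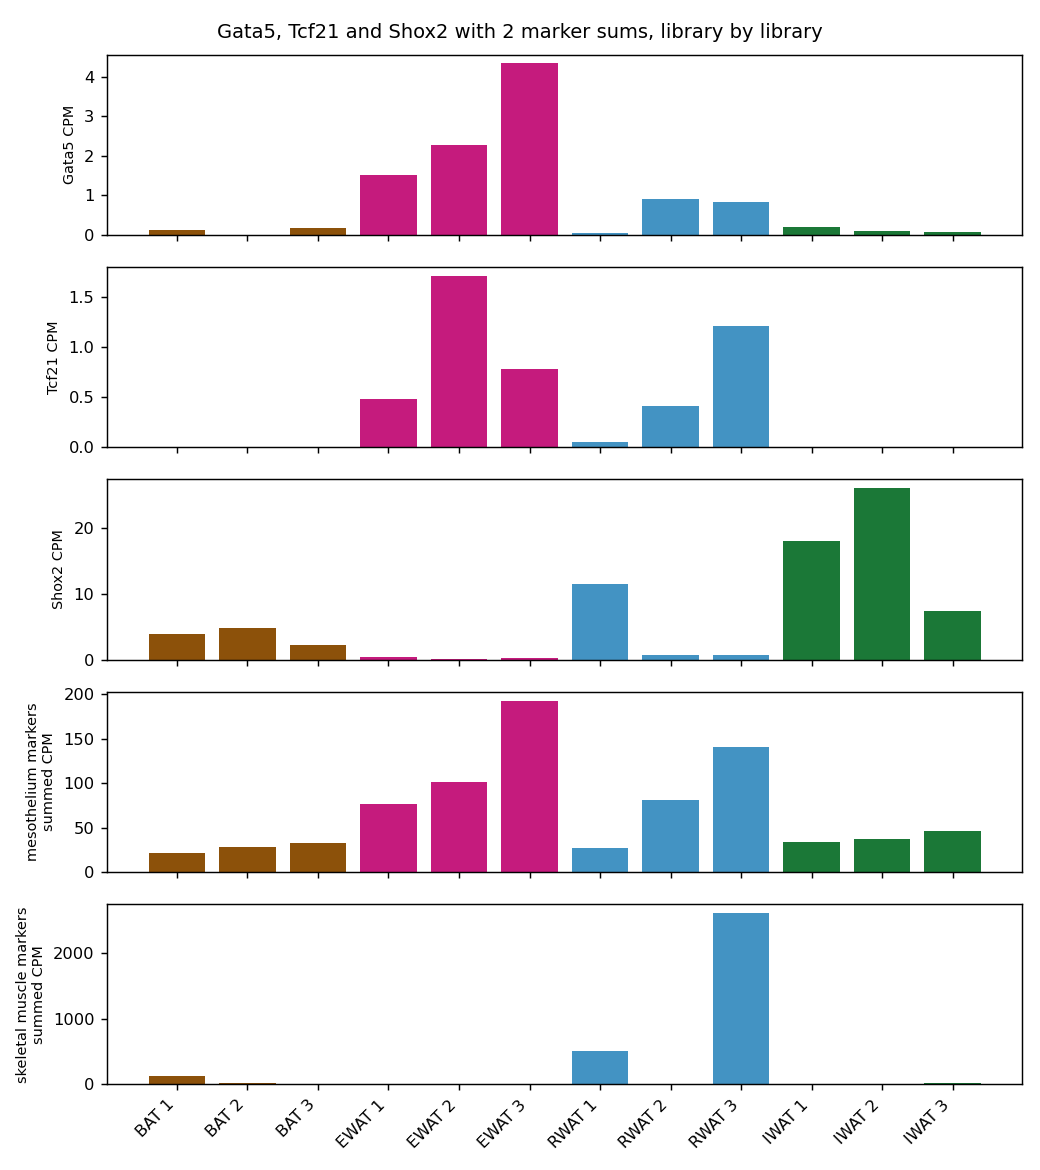
CPM of Gata5, Tcf21 and Shox2 and the summed CPM of 15 mesothelial and 8 skeletal muscle markers in each of the 12 libraries, as bars from 0. RWAT 1 has 0.0483 CPM of Gata5 and of Tcf21 but 11.4 CPM of Shox2, and its mesothelial sum is 27.0 CPM, against 80.9 and 141 CPM in RWAT 2 and RWAT 3.

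The promoters of the 3 genes with the most depot-bound expression are shown for reference; they were chosen after their values were seen. Each runs 5′ to 3′ on the gene's strand from 250 bases before to 50 after the RefSeq transcript start (GRCm38.p6), at chr2:180334630-180334929 for Gata5, chr10:22820094-22820393 for Tcf21 and chr3:66981722-66982021 for Shox2, all on the minus strand. Capitals mark the GATA words, the letters GATA with an A or T before and an A or G after, searched on both strands.
Gata5: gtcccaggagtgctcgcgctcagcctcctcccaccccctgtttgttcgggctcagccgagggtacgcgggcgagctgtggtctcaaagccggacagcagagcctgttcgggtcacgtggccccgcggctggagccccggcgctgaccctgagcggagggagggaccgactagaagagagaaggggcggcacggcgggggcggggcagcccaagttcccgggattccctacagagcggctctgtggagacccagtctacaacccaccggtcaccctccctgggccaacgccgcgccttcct
Tcf21: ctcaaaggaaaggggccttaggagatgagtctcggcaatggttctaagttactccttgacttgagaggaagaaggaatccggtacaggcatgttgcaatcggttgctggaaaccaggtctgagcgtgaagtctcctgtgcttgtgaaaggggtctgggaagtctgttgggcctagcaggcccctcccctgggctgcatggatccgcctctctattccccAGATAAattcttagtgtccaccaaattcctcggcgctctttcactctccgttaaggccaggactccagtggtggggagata
Shox2: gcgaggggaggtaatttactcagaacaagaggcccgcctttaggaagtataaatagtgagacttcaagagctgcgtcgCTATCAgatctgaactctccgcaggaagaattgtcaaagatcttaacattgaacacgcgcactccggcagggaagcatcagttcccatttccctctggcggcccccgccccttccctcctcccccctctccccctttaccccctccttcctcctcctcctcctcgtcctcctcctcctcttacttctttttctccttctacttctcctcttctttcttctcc
Tcf21 held 1 such word, AGATAA, starting at position -31 from the transcript start. Shox2 held 1 on the opposite strand, printed as CTATCA, starting at position -172. The Gata5 window held none of these words. At least 1 of them occurred in 29.8% of all 32851 promoters of this length in the table, so a match here is a description of the letters only. The homeodomain word TAATTA, found in 5.29% of all promoters, was in none of the 3 windows, and the E-box CANNTG, found in 72.3%, was in that of Gata5 alone.

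The remaining patterning genes were more evenly spread. En1 was at 3.30, 11.6 and 2.85 CPM in BAT, 2.67, 0.685 and 0.879 CPM in EWAT, 3.19, 4.68 and 3.49 CPM in RWAT and 1.83, 4.02 and 4.65 CPM in IWAT. The BAT and RWAT libraries stood above all EWAT libraries. The log2 fold change was 2.05 ± 0.64 in BAT against EWAT (edgeR adjusted p = 0.260) and -1.59 ± 0.56 in EWAT against the mean of the others (0.185), and neither passed. BAT 2 alone held 229 of the 343 En1 counts in BAT. Over the fits that left out 1 library, the BAT against EWAT value ran from 1.11 to 2.90.

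Nr2f1 was at 5.05, 4.74 and 3.81 CPM in EWAT, against 2.82, 4.97 and 2.46 CPM in BAT, 1.40, 2.91 and 3.49 CPM in RWAT and 1.05, 2.41 and 1.65 CPM in IWAT. EWAT did not overlap RWAT or IWAT, and BAT did not overlap IWAT. In EWAT against IWAT the log2 fold change was 1.39 ± 0.42 (edgeR adjusted p = 0.0553), which did not pass, and without BAT 2 it was 1.39 with an adjusted p of 0.0425. In BAT against IWAT it was 0.99 ± 0.42 (edgeR adjusted p = 0.362). The antisense gene A830082K12Rik overlaps Nr2f1 and had 17.2 to 69.5 estimated counts per library, against 16 to 106 for Nr2f1. Whether the counting used strand was not given in the sources used here, so reads of this pair may not be told apart.

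Meox1 varied least of the 6 members with a mean of at least 1 CPM, with a root mean square deviation of 0.451 in log2 CPM over the 12 libraries. It averaged 8.08 ± 2.02 CPM in BAT, 6.26 ± 3.25 in EWAT, 6.89 ± 2.45 in RWAT and 5.43 ± 0.414 in IWAT (SD, n = 3 each). The depots overlapped except for BAT, which stood above IWAT, and the log2 fold changes of the 8 contrasts lay between -0.13 and 0.57, with SEs of 0.30 to 0.38, and in 4 of them the direction turned in some alternative fits. Its highest value, 10.0 CPM, was in EWAT 1, against 4.68 and 4.10 CPM in EWAT 2 and EWAT 3. In the same libraries 9 markers of blood vessel endothelium summed to 819, 289 and 284 CPM. In IWAT 1 to 3 the sum was 374, 654 and 732 CPM, while Meox1 was at 5.69, 4.95 and 5.65 CPM, so the orders differed there. In BAT and in RWAT the library with the lowest sum also had the lowest Meox1. The part of endothelial RNA in these values was not tested.

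Gata2, which is also expressed in endothelium and mast cells, was likewise highest within EWAT in EWAT 1. Gata2 was at 2.88, 2.03 and 4.22 CPM in BAT, 5.57, 2.40 and 2.39 CPM in EWAT, 0.967, 1.68 and 2.35 CPM in RWAT and 6.28, 3.93 and 4.59 CPM in IWAT. RWAT stood below IWAT without overlap, with a log2 fold change of -1.58 ± 0.46 in RWAT against IWAT (edgeR adjusted p = 0.135), which did not pass. The 10 mast cell markers summed to 29.0 to 65.2 CPM in RWAT and to 292, 56.4 and 41.1 CPM in IWAT, where IWAT 1 had both the highest sum and the highest Gata2. The part of mast cells was not tested.

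Gata3 was lower in abundance than Gata2 and passed no contrast. It averaged 0.766 ± 0.876 CPM in BAT, 0.679 ± 0.0571 in EWAT, 0.339 ± 0.143 in RWAT and 0.576 ± 0.244 in IWAT (SD, n = 3 each). The largest of the pairwise values was 1.11 ± 0.77 on the log2 scale in BAT against RWAT (edgeR adjusted p = 0.999), and it turned to -0.39 without BAT 1. The BAT mean rested on BAT 1, with 33 counts against 2 and 8 in BAT 2 and BAT 3. Lck, a kinase of T cells, which also express Gata3, was also highest in BAT 1, against 1.27 and 5.20 CPM in BAT 2 and BAT 3 and at most 4.64 CPM in the white depots. Of the 10 markers of T cells and innate lymphoid cells, 8 were highest within BAT in BAT 1. Their summed level was 149 CPM in BAT 1 against 228 and 119 CPM in BAT 2 and BAT 3, of which Il1rl1 made up 164 CPM in BAT 2. The part of lymphocytes was not tested.

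Set against the background of all genes, members passed the test mainly where EWAT was compared. In EWAT against IWAT, 3 of the 9 tested members passed, Gata5 and Tcf21 higher and Shox2 lower, where 11.0% of all genes tested passed (5.52% higher and 5.47% lower in EWAT). In EWAT against the mean of the other depots 2 members passed, Gata5 and Gata6, both higher in EWAT, where 1.15% of all genes passed. In BAT against EWAT 1 member passed, Gata5, where 0.143% of all genes passed. Gata5 and Tcf21 passed the filter on low counts through EWAT and RWAT, so that a difference was built into their selection and these counts describe the members without adding support. The contrasts share libraries, and their counts are not independent of each other.

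**Figure D4:**
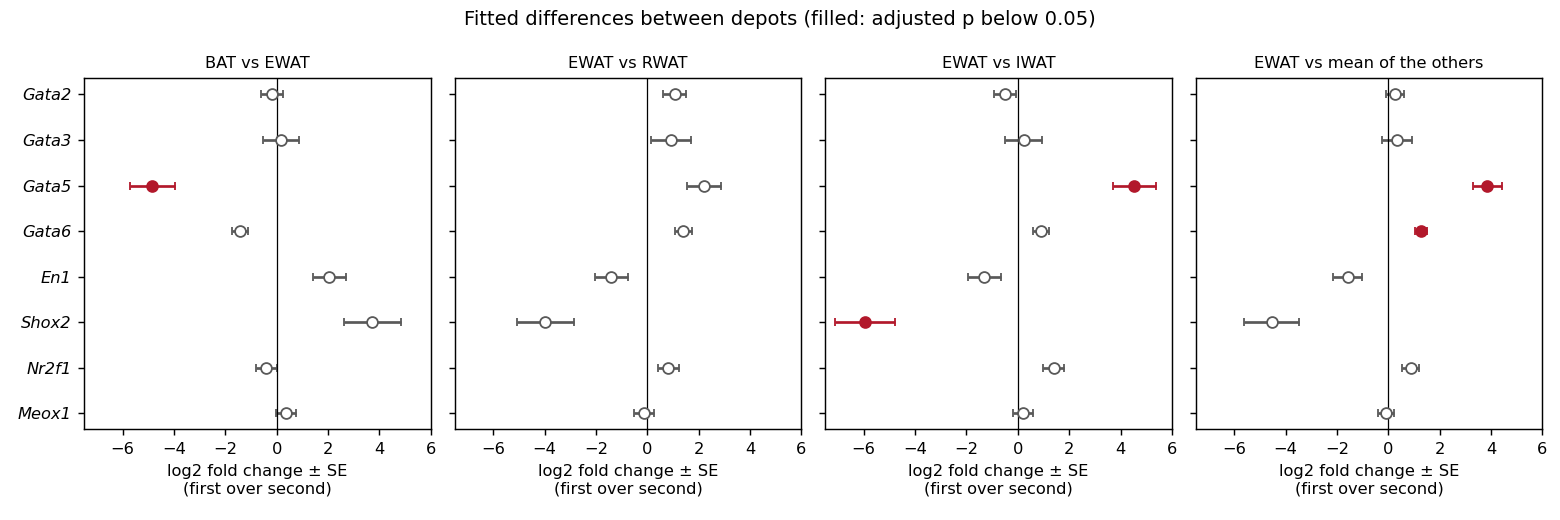
Fitted log2 fold changes of 8 members in the 4 contrasts with EWAT, first depot over second, with SE bars from the edgeR fit of 12 libraries; filled points passed at an adjusted p below 0.05. Gata5 passed in 3 of the 4 contrasts, Gata6 in EWAT against the mean of the others and Shox2 in EWAT against IWAT; Gata4 was not tested and Tcf21 is left out because 2 depots are at 0.

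The other 5 contrasts gave 0 member calls by edgeR. In BAT against RWAT, where 0.0211% of all genes passed, 2 members had an unadjusted p below 0.05 and 0 passed by DESeq2 or limma-voom. In BAT against IWAT, where 0.0264% passed, the same counts were 2, 0 and 0. EWAT against RWAT (0.00528%) had 5 members at an unadjusted p below 0.05, and 2, Gata6 and Shox2, passed by DESeq2 and 0 by limma-voom. RWAT against IWAT (0% of genes) had 4, with 1, Gata2, by DESeq2 and 0 by limma-voom. BAT against the white depots' mean (0.0528%) had 3, with 0 by DESeq2 and limma-voom. Non-overlap of all EWAT libraries with the other 9 was found in CPM for 1.15% of genes with EWAT above, which included Gata5 and Gata6, and for 1.27% with EWAT below, which included Shox2. In TPM these shares were 0.174%, which included Gata5 alone of the members, and 2.13%, which again included Shox2.

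Counted as pairs of depots whose 3 and 3 libraries did not overlap in CPM, 2 members stood above and 3 below in BAT against EWAT, where 5.49% and 5.15% of all genes did so. In BAT against RWAT 0 stood above and 1 below (4.15% and 4.36% of genes), and in BAT against IWAT 2 above and 1 below (8.37% and 7.91%). EWAT against RWAT had 5 above (Gata2, Gata3, Gata5, Gata6 and Nr2f1) and 2 below (En1 and Shox2), against 3.78% and 3.97% of genes. EWAT against IWAT had 4 above and 1 below (15.1% and 17.3%), and RWAT against IWAT 1 above and 1 below (11.0% and 15.2%). In TPM the counts above and below were 1 and 3 in BAT against EWAT (4.52% and 1.87% of genes), 0 and 1 in BAT against RWAT (1.04% and 5.21%) and 0 and 3 in BAT against IWAT (1.87% and 13.6%). They were 1 (Gata5) and 1 (Shox2) in EWAT against RWAT (0.538% and 7.14%), 2 and 1 in EWAT against IWAT (3.64% and 16.4%) and 1 and 1 in RWAT against IWAT (3.56% and 13.2%). The 7 members apart in CPM in EWAT against RWAT gave no call by edgeR, where 1 gene in all passed.

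Other mesodermal and mesenchymal patterning factors were read from a list of 55 genes, 34 of them tested. In EWAT against IWAT 5 were higher (Wt1, Bnc1, Alx1, Hand2 and Foxc2) and 8 lower (among them Osr2, Osr1, Meox2, Twist1, Msx1, Lmx1b and Tcf15), with a median log2 fold change of -0.22 against -0.024 over all genes. Of all genes tested, 5.52% passed as higher and 5.47% as lower in that contrast. Names beyond 4 per list were added after their values were seen. Without IWAT 2 the 13 calls became 1, without EWAT 3 they became 4 and without IWAT 1 they became 8. Wt1 was at 16.7, 19.8 and 16.4 CPM in EWAT and at 0.0654, 0 and 0.118 CPM in IWAT (edgeR adjusted p = 0.00980). Wt1 and Bnc1 are also on the mesothelial list. Both passed the filter on low counts through EWAT and RWAT, and Hand2 through EWAT, so their calls describe them without adding support.

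In BAT against EWAT 3 of these 34 genes passed, among them Meox2, higher in BAT, and Hand2, lower in BAT. Of all genes tested, 0.143% passed in that contrast. Hand2, a basic helix-loop-helix gene of heart and lateral plate, was at 0, 0.0507 and 0 CPM in BAT and at 1.81, 3.31 and 1.07 CPM in EWAT (edgeR adjusted p = 0.0146). Outside EWAT Hand2 was at most 0.227 CPM, so it passed the filter on low counts through EWAT. Its calls describe the gene without adding support. Meox2, the paralogue of Meox1, was at 20.6, 23.3 and 20.8 CPM in BAT and at 8.05, 7.48 and 5.57 CPM in EWAT, a log2 fold change of 1.61 ± 0.25 (edgeR adjusted p = 0.0339). Meox1 itself had a log2 fold change of 0.37 ± 0.38 in the same contrast; the difference between the paralogues was not tested. The 3 calls became 0 without BAT 1 or EWAT 2, 1 without BAT 3, EWAT 3 or IWAT 2, and 5 without BAT 2 or RWAT 1. In EWAT against the mean of the others, 4 were higher (Wt1, Bnc1, Alx1 and Hand2) and 3 lower (Osr2 and Meox2 among them), and without EWAT 3 the 7 calls became 4. Of all genes tested, 0.707% passed as higher and 0.438% as lower in EWAT there. The list had 0 calls by edgeR in the other 5 contrasts, with 7 to 11 of its genes at an unadjusted p below 0.05, 0 to 5 calls by DESeq2 and 0 by limma-voom.

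Cofactors and partners of GATA proteins were tested as 12 genes of a list of 13. Spi1 and Runx1, both also expressed in macrophages, were higher in EWAT than in IWAT, where 11.0% of all genes tested passed. The other 7 contrasts gave 0 calls by edgeR, with 0 to 3 genes at an unadjusted p below 0.05, 1 call by DESeq2 (in RWAT against IWAT) and 0 by limma-voom. Runx1 was at 143, 71.0 and 69.9 CPM in EWAT and at 26.5, 28.2 and 40.2 CPM in IWAT, a log2 fold change of 1.58 ± 0.37 (edgeR adjusted p = 0.0271). Spi1, which encodes PU.1, differed by 1.36 ± 0.35 (edgeR adjusted p = 0.0355). Both calls were lost in the replicate block fit and without EWAT 1, EWAT 3, IWAT 1 or IWAT 2. Adgre1, the macrophage marker F4/80, was at 460, 408 and 768 CPM in EWAT and at 172, 139 and 329 CPM in IWAT, and its part in these values was not tested. Zfpm1, which encodes the GATA cofactor FOG1, was at 23.7, 10.9 and 12.6 CPM in EWAT and at 6.14, 10.1 and 5.46 CPM in RWAT, a log2 fold change of 1.12 ± 0.38 (edgeR adjusted p = 0.716).

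All 10 listed genes of adipogenesis, the process that Gata2 and Gata3 are known to restrain, were tested. Of these, 5 were lower in EWAT than in IWAT and 0 higher, and the median log2 fold change of the 10 was -1.49. Of all genes tested, 5.47% passed as lower in that contrast. Cebpd, an early driver of adipogenesis, was at 18.5, 15.9 and 13.8 CPM in EWAT and at 40.5, 28.6 and 37.4 CPM in IWAT, a log2 fold change of -1.14 ± 0.18 (edgeR adjusted p = 0.0108). Pdgfra, the receptor that marks fat progenitors, Klf4, Zfp423 and Cebpa were the other 4, with log2 fold changes of -0.92, -1.86, -1.80 and -1.46. Gata2 in the same contrast had a log2 fold change of -0.51 ± 0.43 and Gata3 of 0.23 ± 0.73. The 5 calls became 2 without EWAT 1 and 1 without EWAT 3, IWAT 1 or IWAT 2. Cebpd was also lower in EWAT than in the mean of the others (-0.74 ± 0.15, edgeR adjusted p = 0.0466), a call that was lost without any 1 library other than RWAT 2. There 0.438% of all genes tested passed as lower. Of 7 markers of adipose progenitors, 6 (Pdgfra is on both lists) were lower in EWAT than in IWAT as well, with sums of 323 to 620 CPM in EWAT and 1030 to 2500 CPM in IWAT, and 6 adipocyte markers summed to 911 to 8280 CPM in EWAT and 11100 to 17400 CPM in IWAT. The part of these cells in the list's values was not tested. The other 6 contrasts gave 0 calls by edgeR, with 0 to 6 genes at an unadjusted p below 0.05, 0 to 2 calls by DESeq2 and 0 by limma-voom.

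Genes whose profile over the 12 libraries lay nearest to a member were found by the root mean square difference of centred log2 CPM, among 16075 genes with a mean of at least 1 CPM. Gata6 lay nearest to Mylk, which encodes myosin light chain kinase (0.313), and to Pawr (0.337). The member's own distance from a flat profile gives scale: that of Gata6 was 0.683. En1 lay nearest to Alox12 (0.556) and Meox2 (0.585), with 0.991 for its own distance from flat. Shox2 lay nearest to Adh7 (0.936) and to the zinc finger gene Osr2 (0.979), with 2.22 for its own. Nr2f1 lay nearest to Plxnb1 (0.307) and Lockd (0.309), Meox1 to Ppp1r14a (0.239) and Slc41a1 (0.258), and Gata2 to Gpc4 (0.397) and Zfp580 (0.405). These distances share the depth and composition of the same 12 libraries and are given as descriptions. Osr2 was at 0.143, 0.285 and 0.0488 CPM in EWAT and at 6.08, 9.32 and 2.00 CPM in IWAT, so that it was lower in EWAT, as was Shox2, while BAT (1.76 to 4.46 CPM) stood above RWAT (0.182 to 1.64 CPM).

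Genes on the opposite strand overlap several members in the annotation. Rsrc1, which overlaps Shox2, had 306 to 1022 estimated counts in the 12 libraries, and Shox2 had 2 counts in EWAT 2, where Rsrc1 had 452. Rsrc1 was at 758, 643 and 306 counts in RWAT 1 to 3 and at 626, 1022 and 537 in IWAT 1 to 3. Within both depots Rsrc1 and Shox2 were highest in the same library, as they were within BAT (595 and 93 counts in BAT 2). Within EWAT, Rsrc1 was highest in EWAT 3, which had 692 counts of it and 5 of Shox2. Shox2 was highest there in EWAT 1. The use of strand was not given, so reads of Shox2 and Rsrc1 may not be told apart. The long non-coding gene 1010001N08Rik, which overlaps Gata6, had 48 counts in EWAT 2 and 4 to 12 elsewhere, against 82 to 431 counts for Gata6. Overlapping genes of Gata3, Gata5 and Meox1 had at most 4 counts in any library.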

How the data were processed

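Per the labels' protocols, ribosomal RNA was removed from total RNA and 75 bp were read from 1 end of each fragment. The submitters' processing notes name Trimmomatic 0.36, RSEM 1.3.0 and DESeq2 1.10.1 as tools and GRCm38.p4 as the build. The sources used here do not give the aligner, the annotation release or the use of strand. Per the file headers, each deposited table holds expected counts (estimated reads per gene, not normalized between libraries), TPM and gene lengths. Of 47729 genes, 47224 IDs matched GENCODE M21, the source of symbols and positions, and symbols matched for 193 of 194 list memberships.

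Expected counts were rounded to whole numbers, filtered with filterByExpr (minimum count 10) and scaled by TMM factors of 0.846 to 1.14. The 6 pairs of depots, BAT against the white depots' mean and EWAT against the mean of the others were tested with the two-sided quasi-likelihood F test of edgeR 4.0.16 in R 4.3.3, in 1 model over 12 libraries. P-values were adjusted by the Benjamini-Hochberg method over all 18942 genes, with a threshold of 0.05, and the biological coefficient of variation was 0.385. This fit exists in 2 forms in edgeR 4.0.16. The earlier form, the package default, was run first; the newer form was then made the main one to follow the processing of an earlier analysis of these data, after the calls of both had been seen, and the values of the earlier form are given as an alternative chosen after seeing the data. Alternatives were RLE size factors, no filter, DESeq2 1.42.0, limma-voom (limma 3.58.1), the replicate number as a block, a fit of only the depots compared, and leaving out libraries.

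The 10 genes, the gene lists and the marker lists were chosen with earlier results of these data known. Named genes are all members, at most 4 per list with the smallest p over the 6 pairs, the 2 nearest profiles of members with a mean of at least 1 CPM, and overlapping genes. Promoters came from RefSeq (GRCm38.p6), which matched 7 of the 10 genes. Deviations from depot means correlated above 0.1 for all 3 replicate numbers between BAT and RWAT (0.182, 0.429 and 0.199) and for 0 of the other 5 pairs of depots. Only libraries with equal numbers were correlated, so these values do not establish that equal numbers are pairs, and the labels give no pairing. The main fit treats the libraries as unpaired in every contrast, BAT against RWAT included, and the replicate block is an alternative. The tests were tried on simulated data. Sums of marker genes are CPM added over all genes of a list, tested or not. The values of 1 gene of the patterning list are not reported here.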

Additional observations from a re-analysis of the deposited data

How the results depend on the processing

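Of 72 member values, 9 members in 8 contrasts, the 32 with an unadjusted p below 0.05 kept their direction in every alternative. Of the other 40, 18 changed direction in at least 1 alternative, with an adjusted p of at least 0.614 there. Of the members named with a call, Gata5 in EWAT against the mean of the others passed in all 20 alternatives, Gata5 in EWAT against IWAT in 20 of 21, Shox2 in 19 of 21, Tcf21 in 9 of 20 (it was not tested in the fit of the depots compared), Gata6 in EWAT against the others in 10 of 20 and Gata5 in BAT against EWAT in 8 of 21.

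With limma-voom the log2 fold change of Gata3 was -0.59 in BAT against EWAT, -0.29 in BAT against IWAT and -0.17 in BAT against the white mean, against 0.17, 0.39 and 0.56 with edgeR, that of Gata6 in BAT against RWAT 0.06 and that of Shox2 0.91. The block turned Gata3 in BAT against EWAT to -0.05 and Shox2 in BAT against RWAT to 0.46. Without RWAT 1 and RWAT 3, BAT against RWAT gave 2.50 for Shox2 and -0.02 for Meox1. Without EWAT 1 and BAT 2, Gata2 was at 0.56 in BAT against EWAT and -0.34 in EWAT against the others, En1 at -0.30 in BAT against RWAT and -0.19 in BAT against IWAT, Gata5 at 0.28 in BAT against IWAT, Meox1 at -0.30 in EWAT against IWAT and Nr2f1 at -0.01 in BAT against the white mean. Leaving out 1 library gave log2 fold changes on both sides of 0 as follows. In BAT against EWAT they ran from -0.50 to 0.34 for Gata2 and from -1.33 to 0.69 for Gata3. In BAT against RWAT they ran from -0.39 to 1.63 for Gata3, -0.31 to 0.27 for Gata6, -0.30 to 0.97 for En1, -0.77 to 2.45 for Shox2 and -0.04 to 0.43 for Meox1. In BAT against IWAT they ran from -1.11 to 0.92 for Gata3, -1.0 to 0.28 for Gata5 and -0.19 to 1.09 for En1. In EWAT against RWAT Meox1 ran from -0.64 to 0.10. In EWAT against IWAT Gata3 ran from -0.07 to 0.43 and Meox1 from -0.30 to 0.44, and in RWAT against IWAT En1 ran from -0.19 to 0.37. In BAT against the white mean Gata3 ran from -0.94 to 1.08 and Nr2f1 from -0.04 to 0.52, and in EWAT against the others Gata2 ran from -0.27 to 0.46 and Meox1 from -0.61 to 0.13.

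Members passing in BAT against EWAT numbered 0 in place of 1 with the earlier quasi-likelihood form, limma-voom, the replicate block, the fit of only these depots, and without EWAT 1 and BAT 2 together, and 4 with DESeq2. With DESeq2 there were also 2 in EWAT against RWAT, 5 in EWAT against IWAT, 1 in RWAT against IWAT and 4 in EWAT against the others. EWAT against the others gave 1 member in place of 2 in the replicate block fit and when EWAT 1 and BAT 2, or both RWAT 1 and RWAT 3, were left out. Leaving out 1 library gave 0 to 2 members in BAT against EWAT, 0 to 4 in EWAT against IWAT, 1 to 3 in EWAT against the others and 0 in the other 5 contrasts. The block also gave 2 members in place of 3 in EWAT against IWAT and changed no other count of members. Pairs of depots that did not overlap for a member numbered 15 in deposited TPM and 23 in CPM, where the share of Rn7s1 differed between libraries.

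All genes passing in BAT against EWAT, BAT against RWAT, BAT against IWAT, EWAT against RWAT, EWAT against IWAT, RWAT against IWAT, BAT against the white mean and EWAT against the others numbered 27, 4, 5, 1, 2082, 0, 10 and 217. With DESeq2 they were 477, 45, 320, 130, 3780, 1160, 180 and 1042. With the earlier form they were 16, 3, 5, 1, 1710, 0, 10 and 151. With limma-voom BAT against EWAT had 16, BAT against the white mean 4, EWAT against the others 66, and BAT against RWAT, BAT against IWAT and EWAT against RWAT 0 each. No filter gave 63 in BAT against EWAT, 2 in EWAT against RWAT and 21 in BAT against the white mean, and RLE factors gave 2 in EWAT against RWAT. The block gave 13 in BAT against EWAT, 1064 in EWAT against IWAT and 59 in EWAT against the others. Fits of only the depots compared gave 2 in BAT against RWAT, 0 in BAT against IWAT, 0 in EWAT against RWAT and 2 in RWAT against IWAT. Without EWAT 1 and BAT 2 the 8 contrasts had 5, 17, 59, 0, 1071, 1, 208 and 33. Without RWAT 1 and RWAT 3, BAT against RWAT had 0, EWAT against IWAT 1141, RWAT against IWAT 3, BAT against the white mean 4 and EWAT against the others 40. Leaving out 1 library gave 3 to 247, 0 to 28, 3 to 82, 0 to 79, 55 to 2769, 0 to 61, 1 to 251 and 37 to 395.

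In the lists, GATA cofactors in EWAT against IWAT (2) became 0 with the block, 1 with only the depots compared, 1 without EWAT 1 and BAT 2, and 0 to 2 without 1 library. Patterning factors in BAT against EWAT (3) became 5 with no filter, 9 with DESeq2, 0 without EWAT 1 and BAT 2, and 0 to 5 without 1 library; in EWAT against IWAT (13) they numbered 1 to 15 without 1 library. In EWAT against the others (7) they became 4 with limma-voom, without RWAT 1 and RWAT 3 or without EWAT 1 and BAT 2, and 4 to 8 without 1 library. Adipogenic genes in EWAT against IWAT (5) became 3 without EWAT 1 and BAT 2 and 1 to 6 without 1 library; in EWAT against the others (1) they became 4 with DESeq2, 0 to 1 without 1 library and 0 in every other alternative except the fits without 1 library. The causes were not tested. Gata4 had at most 6 counts in any library and Tcf21 at most 30; the effect of depth was not tested.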

Other observations

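Markers of neighbouring tissues and of other cells gave few calls. Of 8 lymph node genes 0 passed in any contrast by edgeR, with up to 2 at an unadjusted p below 0.05 and up to 2 called by DESeq2 and 0 by limma-voom, and Ccl21a, a chemokine of lymph node stroma, was highest in IWAT 1 of all 12 libraries, against 0.268 and 0.647 CPM in IWAT 2 and IWAT 3. Of 10 genes of mammary gland and skin epithelium 5 were tested, and Krt14 alone passed, higher in EWAT than in IWAT (log2 fold change 4.46 ± 1.02, edgeR adjusted p = 0.0218) and than in the mean of the others. Limma-voom called 0 of them. In EWAT against IWAT their median was -0.15, with Trp63 at -3.2 (edgeR adjusted p = 0.0523) and Cdh1 at 3.1 (0.0525). Krt14 was at 2.57, 1.31 and 10.3 CPM in EWAT and 0.29, 2.09 and 1.59 CPM in RWAT. It was at most 0.458 CPM in BAT and IWAT, so it passed the filter on low counts through EWAT and RWAT. Of 8 kidney and adrenal genes 2 were tested, with 0 calls by edgeR, DESeq2 or limma-voom and up to 2 at an unadjusted p below 0.05. Of 10 mast cell genes 9 were tested, and Cpa3 and Mcpt4 were lower in EWAT than in IWAT, where limma-voom called 0. In IWAT 1 to 3 Cpa3 was at 67.5, 12.6 and 6.12 CPM and Mcpt4 at 53.2, 9.15 and 5.47 CPM. Kit, on the same list, was at 53.3, 5.88 and 7.62 CPM in EWAT and at 24.6, 9.15 and 7.77 CPM in IWAT. Of 9 endothelial genes Tek and Ramp2 alone passed, lower in EWAT than in IWAT and than in the mean of the others. The median log2 fold change of the 9 was -0.07 and -0.19 in these contrasts, so the list as a whole was not lower in EWAT. Cdh5 was at 250, 48.2 and 59.5 CPM in EWAT and at 51.3, 121 and 162 CPM in IWAT. Of 10 genes of T cells and innate lymphoid cells, 9 of them tested, Rora was lower in EWAT than in IWAT. Over all genes tested, 11.0% passed in EWAT against IWAT and 1.15% in EWAT against the mean of the others. The call of Rora alone among 9 tested genes was near the first of these shares. The 8 muscle genes had 0 calls by edgeR, with up to 8 at an unadjusted p below 0.05 in the contrasts with RWAT, and DESeq2 called 8 in EWAT against RWAT and 8 in RWAT against IWAT, where limma-voom called 0.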
